A study of Mus musculus with 6 samples.

Results

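The genes described here are 10 genes whose transcripts tend to be abundant in memory and effector T cells: Cd44, the S100 genes S100a4, S100a6, S100a10 and S100a11, the annexin genes Anxa1 and Anxa2, the galectin genes Lgals1 and Lgals3, and Ahnak. They were taken by name, with earlier results of these data known, and no filter on their level was applied. A probe set counted for a gene if the platform annotation gave it that symbol alone, and where several did, the brightest on average was kept. All 10 genes were measured, among 19938 genes in all. S100a11 had a second probe set, and each of the other members had a single one.

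The cells were naive CD4 T cells taken at 6 weeks of age from peripheral lymph nodes of mice of the strain C57BL/6 Foxp3-GFP, in which green fluorescent protein reports Foxp3, the transcription factor that defines regulatory T cells. Every sample carried this reporter and had been sorted, after magnetic bead enrichment, as CD4+ CD8- TCRβ+ with low CD44 and no CD25 or Foxp3. The groups differed in Ly-6C, a membrane protein of the Ly6 family: 3 arrays held Ly-6C-positive cells and 3 held Ly-6C-negative cells. No treatment is named in the labels. Replicates are named as biological, but the mice behind each sample, and any pooling of them, are left unstated, so p-values measure the spread between these samples. The sort for low CD44 limits what the comparison can show, because both groups were chosen to lack cells with much CD44 protein. Differences below are the Ly-6C-negative minus the Ly-6C-positive mean, on the log2 scale of the deposited values, and a call is a limma p, adjusted by the Benjamini-Hochberg method over all genes, under 0.05.

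S100 proteins are small calcium-binding proteins with EF-hand motifs that attach to other proteins and alter their activity. Annexins bind phospholipid membranes when calcium rises, and annexin A2 forms a complex with S100A10 at the plasma membrane to which the very large scaffold protein AHNAK is recruited. Galectins bind sugar chains with exposed galactose on glycoproteins, and CD44 is a receptor for the matrix polysaccharide hyaluronan. In T cells CD44 protein is low before a cell has met antigen and stays high in memory cells, and transcripts of several of these genes are part of the profile by which memory T cells are told from naive ones.

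The 10 genes showed no common direction between Ly-6C-negative and Ly-6C-positive cells. None passed the limma threshold, where 29 of all genes did, or 0.145%. The differences lay above 0 for 5 members and below 0 for the other 5, with a median of -0.00325, and the median over all genes was -0.00476. Ahnak was the highest at 0.50 and Lgals1 the lowest at -0.26. At an unadjusted limma p under 0.05 there were 4 members, Ahnak and Anxa2 above 0 and Cd44 and Lgals1 below 0, where 6.71% of all genes reached that level. With the replicate number as a block there were 5, Anxa1 being added above 0, where 7.31% of all genes reached it, and over the alternatives the count ran from 3 to 5. Values did not overlap between the groups for 3 members, and for 12.6% of all genes. Ahnak and Anxa2 were the 2 of these that lay higher in Ly-6C-negative cells, as 6.12% of all genes did, and Cd44 the 1 that lay lower, as 6.5% did.

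**Figure D1:**
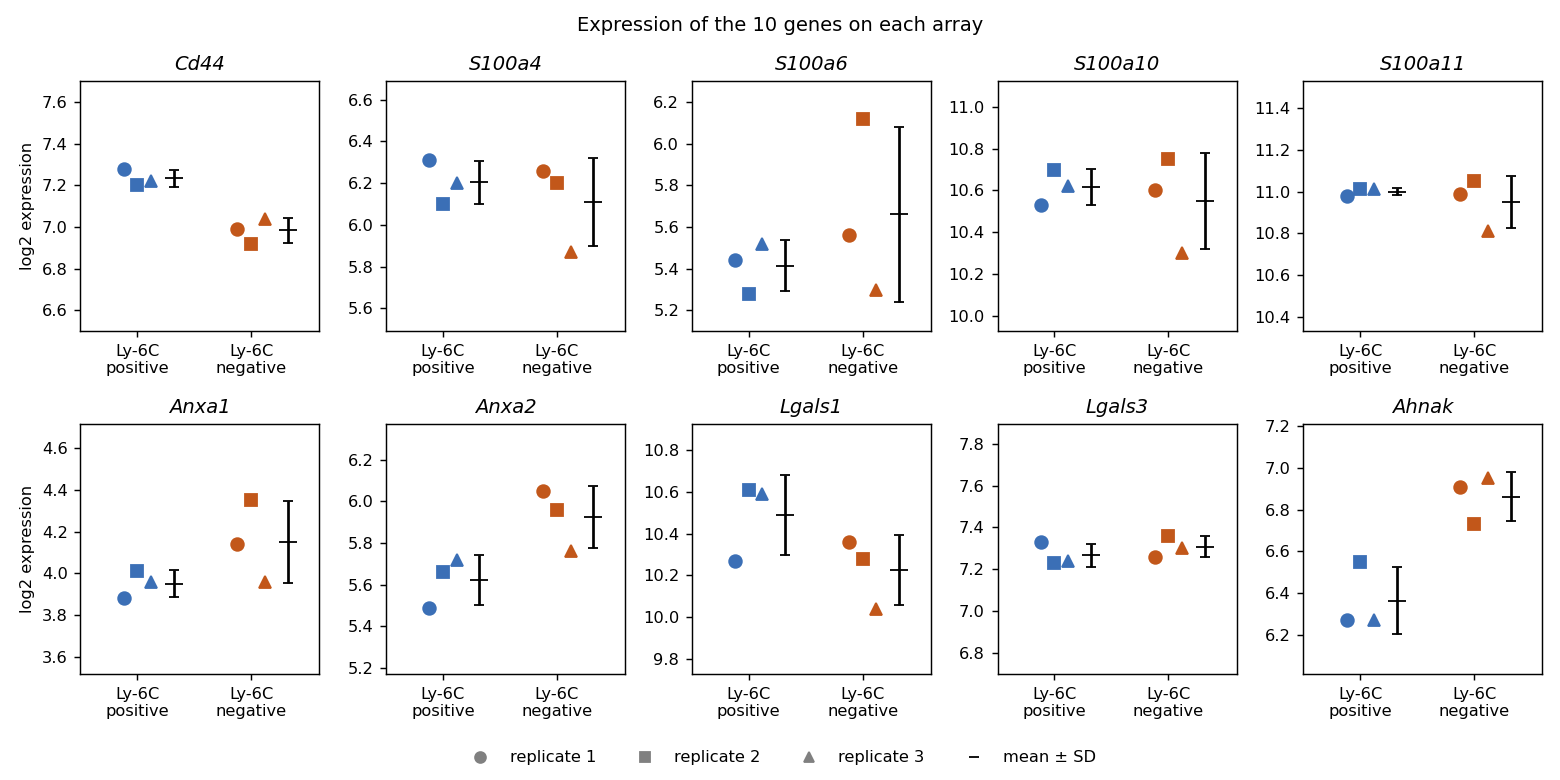
Log2 expression of each of the 10 genes (y axis, the same span of 1.2 in every panel) on the 3 Ly-6C-positive and 3 Ly-6C-negative arrays, with the symbol giving the replicate number and the bar the mean and SD of the group. Ahnak and Anxa2 lay higher and Cd44 lower on all Ly-6C-negative arrays, and the groups overlapped for the other 7 genes.

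The 3 members without overlap are the ones for which the stretch before the gene's start is shown, so that the genes behind the clearest separations can be inspected. Promoter sequences were taken from RefSeq on build GRCm38.p6, where 8 of the 10 members were matched by gene ID, and the 250 bases before the annotated start were searched on both strands. The motifs were TGANTCA, the site of AP-1 factors, GGGCGG, the GC box of Sp and Klf factors, TATAAA, the TATA box, and the CArG box of serum response factor. Capitals mark the bases of any match. The stretch of Cd44 is at chr2:102901666-102901915 on the minus strand, that of Anxa2 at chr9:69453433-69453682 on the plus strand and that of Ahnak at chr19:8989034-8989283 on the plus strand.
Cd44: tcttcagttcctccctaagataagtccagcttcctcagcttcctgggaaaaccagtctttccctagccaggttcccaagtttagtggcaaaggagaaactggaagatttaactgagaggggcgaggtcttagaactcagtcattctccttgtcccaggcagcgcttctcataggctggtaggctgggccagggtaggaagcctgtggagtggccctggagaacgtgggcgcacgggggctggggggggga
Anxa2: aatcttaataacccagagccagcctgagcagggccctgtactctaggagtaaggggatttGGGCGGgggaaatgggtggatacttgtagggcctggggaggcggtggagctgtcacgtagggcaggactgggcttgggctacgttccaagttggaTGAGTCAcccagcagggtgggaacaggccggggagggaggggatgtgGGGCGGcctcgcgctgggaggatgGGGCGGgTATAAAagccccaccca
Ahnak: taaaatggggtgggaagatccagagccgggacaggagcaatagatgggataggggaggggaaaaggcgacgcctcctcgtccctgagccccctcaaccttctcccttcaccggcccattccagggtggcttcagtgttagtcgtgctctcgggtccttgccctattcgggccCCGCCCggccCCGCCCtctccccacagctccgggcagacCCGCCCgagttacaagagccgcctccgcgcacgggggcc

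The Ahnak stretch held 3 GC boxes and 18 CG dinucleotides, and none of the other motifs. The Anxa2 stretch held 3 GC boxes, 1 AP-1 site and 1 TATA box, with no match overlapping another, and 9 CG dinucleotides. The Cd44 stretch held no match to any of the 4 motifs and 5 CG dinucleotides. Among the promoters of all genes, 32841 stretches of the same length, 32.7% held a GC box, 6.75% an AP-1 site, 12.4% a TATA box and 1.47% a CArG box, and the median stretch held 6 CG dinucleotides. Of the other members matched, S100a11 had 2 AP-1 sites and 3 GC boxes, Lgals3 had 1 GC box, S100a4 and Anxa1 had 1 TATA box each, and S100a6 had no match. A match describes these letters and no binding was measured here.

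Ahnak, the gene of the scaffold protein of the S100A10-annexin A2 complex, showed the widest separation of the 10. Its log2 expression was 6.27, 6.55 and 6.27 on Ly-6C-positive replicates 1, 2 and 3 and 6.91, 6.73 and 6.95 on Ly-6C-negative replicates 1, 2 and 3. The lowest Ly-6C-negative array thus lay above the highest Ly-6C-positive one, and on both sides replicate 2 was the array nearest to the other group. The group means were 6.36 ± 0.16 (SD, n = 3) and 6.87 ± 0.12 (SD, n = 3), a difference of 0.50 with a standard error of 0.0950 and a 95% interval of 0.29 to 0.72, or 1.42-fold higher with bounds of 1.22 and 1.64. The limma p was 0.000402 before adjustment and 0.145 after it. Leaving out Ly-6C-negative replicate 2, the limma adjusted p came to 0.0567, its lowest value under any alternative run, and its highest was 0.634. Ahnak2, the related scaffold gene, lay lower without overlap, with a difference of -0.09 (limma adjusted p = 0.875).

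Anxa2, the membrane-binding partner of S100A10, lay in the same direction as Ahnak. It measured 5.49, 5.66 and 5.72 on Ly-6C-positive replicates 1 to 3 and 6.05, 5.96 and 5.76 on Ly-6C-negative replicates 1 to 3. The gap between the groups was small, because Ly-6C-negative replicate 3 lay just above Ly-6C-positive replicate 3. The difference was 0.30 with a standard error of 0.0937 and an interval of 0.09 to 0.51 (limma adjusted p = 0.546). Over the alternatives the limma adjusted p of Anxa2 ran from 0.273 to 0.979.

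Anxa1, the gene of the glucocorticoid-induced annexin known from the resolution of inflammation, overlapped between the groups. It measured 3.88, 4.01 and 3.96 on the Ly-6C-positive arrays and 4.14, 4.35 and 3.96 on the Ly-6C-negative arrays, in replicate order. Ly-6C-negative replicates 1 and 2 were above every Ly-6C-positive array, and replicate 3 was not. The difference was 0.20 with an interval of -0.02 to 0.42 (limma adjusted p = 0.772), and it came to 0.10 without Ly-6C-negative replicate 2 and to 0.30 without Ly-6C-negative replicate 3. The mean signal of Anxa1 stood at the 6.97 percentile of all genes, near the floor of the array, where differences are compressed.

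Transcripts of the S100A10 partner itself did not follow Anxa2 and Ahnak. S100a10 measured 10.53, 10.70 and 10.62 on the Ly-6C-positive arrays and 10.60, 10.75 and 10.30 on the Ly-6C-negative arrays. Ly-6C-negative replicate 2 was the highest of all arrays and Ly-6C-negative replicate 3 the lowest, so the Ly-6C-positive values lay inside the range of the others. The difference was -0.07 with an interval of -0.31 to 0.18 (limma adjusted p = 0.950).

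S100a11, whose product binds annexin A1, was almost level over 5 of the 6 arrays. It measured 10.98, 11.01 and 11.01 in Ly-6C-positive cells and 10.99, 11.05 and 10.81 in Ly-6C-negative cells. The difference was -0.05 with an interval of -0.22 to 0.12 (limma adjusted p = 0.947), which in fold terms spans 0.856 to 1.09. Only Ly-6C-negative replicate 3 stood away from the rest. The second probe set of S100a11 (10457640) gave 10.87, 10.88 and 10.87 against 10.89, 10.91 and 10.68, again with Ly-6C-negative replicate 3 lowest, and a difference of -0.048.

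S100a4, whose product binds non-muscle myosin and favours cell migration, also overlapped. It measured 6.31, 6.10 and 6.20 in Ly-6C-positive cells and 6.26, 6.20 and 5.87 in Ly-6C-negative cells. The difference was -0.09 with an interval of -0.33 to 0.15 (limma adjusted p = 0.928). The low value again belonged to Ly-6C-negative replicate 3, and the other 5 arrays lay between 6.10 and 6.31.

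S100a6, the gene of calcyclin, varied more than any other member within a group. It measured 5.44, 5.28 and 5.52 in Ly-6C-positive cells and 5.56, 6.12 and 5.30 in Ly-6C-negative cells. Its spread within groups, an SD of 0.308 over both, stood at the 99.2 percentile of all genes. The SD was 0.12 in Ly-6C-positive and 0.42 in Ly-6C-negative cells, where replicate 2 stood apart. The mean signal of S100a6 stood at the 31.4 percentile of all genes. The difference was 0.25 with an interval of -0.14 to 0.64 (limma adjusted p = 0.875), and it came to 0.02 without Ly-6C-negative replicate 2 and to 0.43 without Ly-6C-negative replicate 3. The size of the S100a6 value therefore rested on which of those arrays was kept.

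Lgals1, the gene of galectin-1, a secreted lectin that can restrain and kill activated T cells, lay lower in Ly-6C-negative cells on average. It measured 10.27, 10.61 and 10.59 on the Ly-6C-positive arrays and 10.36, 10.28 and 10.04 on the Ly-6C-negative arrays. Ly-6C-positive replicate 1 fell among the Ly-6C-negative values, so the groups overlapped. The difference was -0.26 with a standard error of 0.111 and an interval of -0.51 to -0.01 before any adjustment (limma adjusted p = 0.726). Without Ly-6C-negative replicate 3 it was -0.17 and without Ly-6C-positive replicate 1 it was -0.37.

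Lgals3, the gene of galectin-3, which crosslinks sugar chains of the T cell receptor complex, was among the most even of the members. It measured 7.33, 7.23 and 7.24 in Ly-6C-positive cells and 7.26, 7.36 and 7.30 in Ly-6C-negative cells. Values of the groups were interleaved. The difference was 0.04 with an interval of -0.11 to 0.19, or 0.929-fold to 1.14-fold (limma adjusted p = 0.947).

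Cd44, whose protein set the gate, lay lower on all Ly-6C-negative arrays. It measured 7.28, 7.20 and 7.22 against 6.99, 6.92 and 7.04, with the smallest spread within groups of the 10, an SD of 0.0510. The means were 7.23 ± 0.038 (SD, n = 3) and 6.98 ± 0.061 (SD, n = 3), 1.19-fold lower in Ly-6C-negative cells, with a limma p of 0.00356 before adjustment and 0.427 after it. Cd44 thus lay in the opposite direction to Ahnak and Anxa2, although all 3 are linked to memory cells. Transcripts were measured, and how far the gate on CD44 protein shaped them was not tested.

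**Figure D2:**
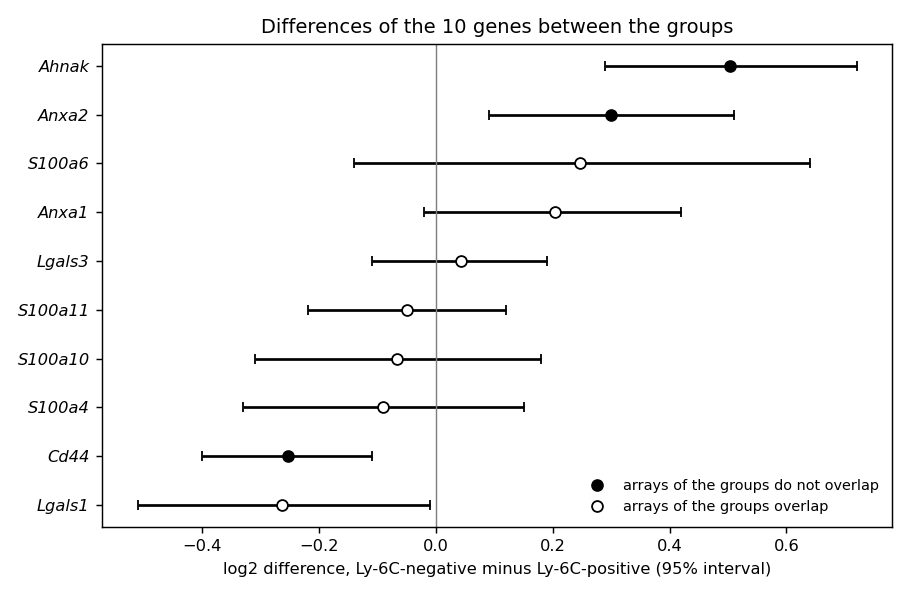
Log2 difference of each gene, Ly-6C-negative minus Ly-6C-positive (x axis), with its 95% limma interval as a bar, ordered by size (y axis); filled points mark genes whose arrays do not overlap between groups. The interval lay above 0 for Ahnak and Anxa2 and below 0 for Cd44 and Lgals1, before any adjustment for the number of genes.

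Much of the variation of these genes was between Ly-6C-negative arrays. Ly-6C-negative replicate 2 was the highest of the 6 arrays for 5 members, S100a6, S100a10, S100a11, Anxa1 and Lgals3, where it was the highest for 20.6% of all genes. Ly-6C-negative replicate 3 was the lowest for 4 members, S100a4, S100a10, S100a11 and Lgals1, where it was the lowest for 19.9% of all genes. Ly-6C-negative replicate 2 was also the lowest array for 24.4% of all genes. Over all genes, limma array weights were lowest for these arrays, at 0.4557 for Ly-6C-negative replicate 2 and 0.7505 for Ly-6C-negative replicate 3. These arrays thus varied over all genes and not in the members alone. Within groups the median SD was nonetheless larger over the members, at 0.142, than over all genes, at 0.0953. Without Ly-6C-negative replicate 3 the differences of S100a4, S100a10 and S100a11 turned to 0.031, 0.057 and 0.022, and without Ly-6C-negative replicate 2 they were -0.14, -0.17 and -0.10. For Ahnak the value was 0.57 without Ly-6C-negative replicate 2 and 0.46 without Ly-6C-negative replicate 3, and for Cd44 it was -0.22 and -0.28.

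**Figure D3:**
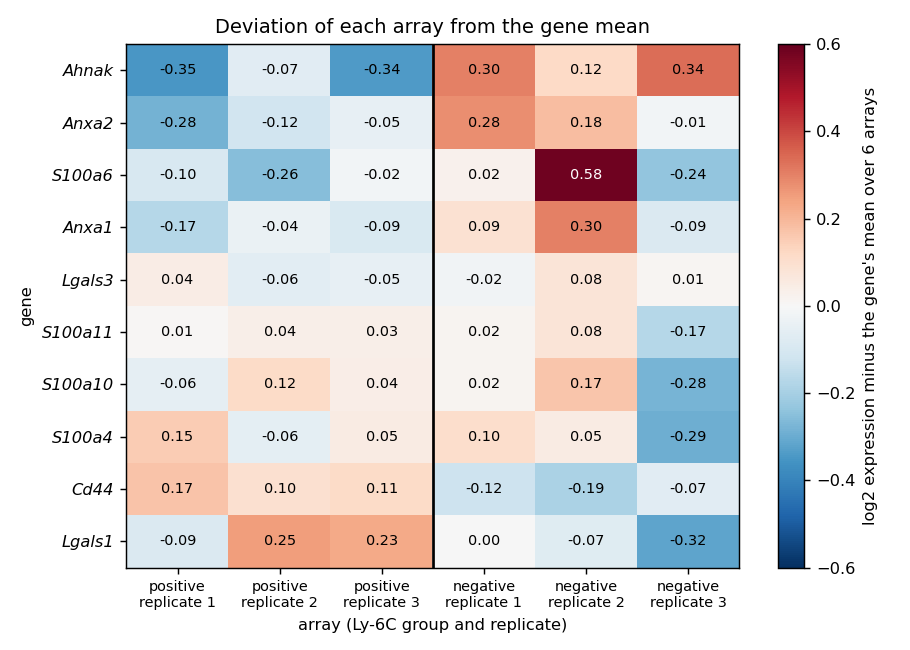
Log2 expression on each array (columns, split by Ly-6C group) minus the gene's mean over the 6 arrays (colour and printed number) for the 10 genes (rows). Ly-6C-negative replicate 3 was 0.32 below the mean for Lgals1 and 0.34 above it for Ahnak, and Ly-6C-negative replicate 2 was 0.58 above it for S100a6.

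The other genes of these families gave no call either. Of 15 other S100 and S100-fused genes, none passed the limma threshold, 1 reached an unadjusted limma p under 0.05 and the median difference was 0.00707. That gene, S100z, measured 4.98, 5.05 and 5.00 in Ly-6C-positive cells and 5.46, 5.61 and 5.01 in Ly-6C-negative cells, a difference of 0.35 (limma adjusted p = 0.655). Here too Ly-6C-negative replicate 3 was the array that stayed among the Ly-6C-positive values. S100a8 and S100a9, the calprotectin genes of neutrophils and monocytes, had differences of 0.07 and 0.13 (limma adjusted p = 0.940 and 0.842).

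Of 10 other annexins none passed, and 2 reached an unadjusted limma p under 0.05, both below 0. Anxa5, whose product binds phosphatidylserine, measured 10.38, 10.34 and 10.39 in Ly-6C-positive cells and 10.22, 10.01 and 10.25 in Ly-6C-negative cells, a difference of -0.21 without overlap (limma adjusted p = 0.654). Anxa10 differed by -0.28 (limma adjusted p = 0.473), also without overlap, and Anxa6 by -0.13 (limma adjusted p = 0.868). Anxa8 lay higher without overlap, by 0.09 (limma adjusted p = 0.884). Values thus did not overlap for 3 of the 10, and for 12.6% of all genes. The annexin values thus ran from -0.28 for Anxa10 to 0.30 for Anxa2. Both were dimmer than the median gene, at the 11.9 and 36.3 percentile of mean signal. Of 9 other galectin and galectin-linked genes measured, none passed and none reached an unadjusted limma p under 0.05. Differences ran from -0.12 for Lgals2 to 0.13 for both Lgalsl and Lgals3bp. Lgals3bp, which encodes a galectin-3 binding glycoprotein, was the only 1 of the 9 without overlap, and it lay higher.

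Among 24 measured genes whose products bind or act with the members, none passed. Values did not overlap for 3 that lay higher and for 1, Ahnak2, that lay lower, and for 12.6% of all genes. Myh9, the gene of the non-muscle myosin heavy chain bound by S100A4, measured 10.17, 10.20 and 10.19 in Ly-6C-positive cells and 10.33, 10.51 and 10.48 in Ly-6C-negative cells. The groups did not overlap, the difference was 0.25 with a standard error of 0.0708, and the limma adjusted p was 0.473. Spn, the gene of CD43, and Itgb1, the integrin beta1 gene, had differences of 0.13 and 0.14 without overlap (limma adjusted p = 0.811 and 0.842), and Plaur, the urokinase receptor gene, by 0.33 with overlap (limma adjusted p = 0.835). The linkers of CD44 to actin, Ezr, Rdx and Msn, differed by 0.02, 0.05 and 0.03. Their limma adjusted p were 0.981, 0.948 and 0.977.

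Other genes of memory and effector CD4 T cells included 1 call in each direction, where 0.145% of all genes were called. Of 33 measured, Il2rb, the beta chain gene of the IL-2 and IL-15 receptors, was higher at 1.12 (limma adjusted p = 0.000860) and Il18r1, an IL-18 receptor gene, was lower at -0.67 (limma adjusted p = 0.0325). Id2, a transcriptional inhibitor, and Ccr6, a chemokine receptor gene, had differences of 0.58 and -0.20 (limma adjusted p = 0.144 and 0.588). At an unadjusted limma p under 0.05 there were 6 above 0 and 2 below 0, where 6.71% of all genes reached that level. Values did not overlap for 8 that lay higher and 3 that lay lower, and for 12.6% of all genes. The median was 0.0645, and the mean level was 7.71 to 7.74 in Ly-6C-positive and 7.76 to 7.86 in Ly-6C-negative arrays. Of 18 measured genes of naive T cells none passed, and 1 was above 0 and 2 below 0 at an unadjusted limma p under 0.05. Values did not overlap for 3 that lay higher and 1 that lay lower, and the median was 0.0222. The mean level was 9.75 to 9.77 in Ly-6C-positive and 9.70 to 9.82 in Ly-6C-negative arrays. The values with the smallest p were -0.49 for Dapl1, -0.23 for Txk, 0.16 for Bach2 and 0.16 for Igfbp4, with limma adjusted p of 0.477, 0.578, 0.724 and 0.742.

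**Figure D4:**
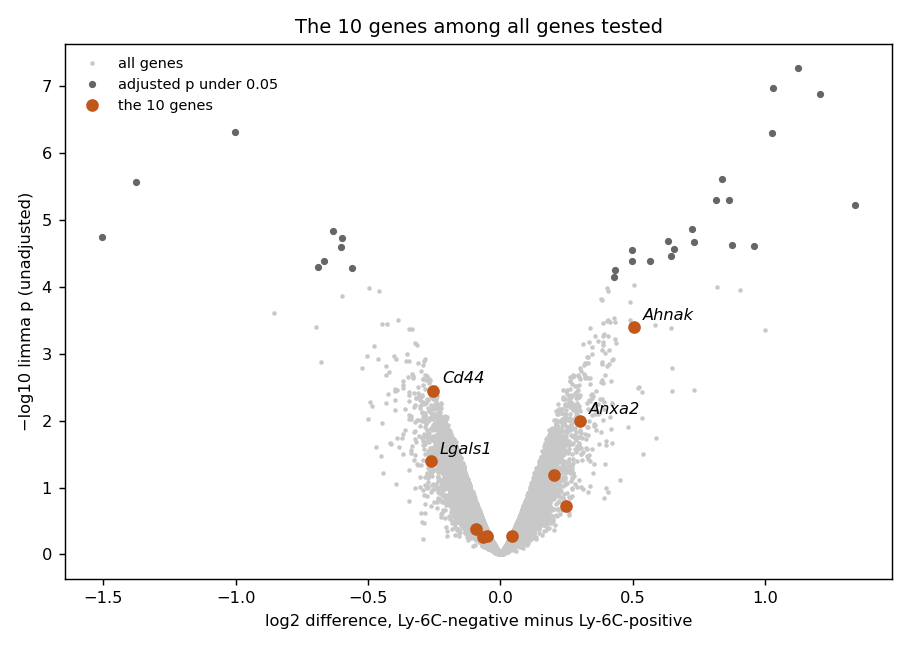
Log2 difference (x axis, Ly-6C-negative minus Ly-6C-positive) against −log10 of the unadjusted limma p (y axis) for all 19938 genes, with the 29 called genes in dark grey and the 10 genes described here in orange. Ahnak, at 0.50, had the smallest p of the 10, and none of the 10 was among the called genes.

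The cells carried the T cell identity of the labels: the 8 measured T cell markers had a mean log2 expression of 11.03 to 11.09 in Ly-6C-positive and 11.06 to 11.14 in Ly-6C-negative arrays, and none of them passed. Among these markers Cd5 and Cd28 lay higher in Ly-6C-negative cells without overlap, by 0.41 and 0.16 (limma adjusted p = 0.139 and 0.739). Below 0 were 5 of the 8. The other gate genes measured, Cd4, Cd8a, Cd8b1, Il2ra and Foxp3, differed by -0.09, -0.03, -0.12, 0.12 and 0.01 (limma adjusted p between 0.916 and 0.995). Monocyte, macrophage and neutrophil markers, whose cells are rich in several of these S100 and annexin transcripts and in galectin-3, had 0 of 20 past the threshold and 1 above and 3 below 0 at an unadjusted limma p under 0.05. Their mean level was 6.01 to 6.06 in Ly-6C-positive and 5.99 to 6.01 in Ly-6C-negative arrays. On Ly-6C-negative replicate 2, where S100a6 and Anxa1 were highest, the mean was 5.99. Lyz2, the marker above 0 at that level, was itself highest on this array, at 4.98 against 4.48 to 4.86 on the others. The part of such cells in the values of the 10 genes was not tested. Dendritic, B cell and stromal lists had 0 of 10, 0 of 9 and 0 of 12 past the threshold. Their mean levels were 5.15 to 5.23, 5.08 to 5.12 and 6.38 to 6.48 in Ly-6C-positive and 5.15 to 5.18, 5.08 to 5.10 and 6.37 to 6.43 in Ly-6C-negative arrays.

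Some markers of regulatory T cells and of NK cells differed between the groups. Of 12 regulatory T cell markers 4 were called higher, Izumo1r, Ctla4, Ikzf2 and Gpr83, and none was called lower. Over all genes 0.145% were called. Without regard to calls, 10 lay above 0 and 2 below 0. Values did not overlap for 6 that lay higher and 1 that lay lower, and for 12.6% of all genes. The mean level of the list was 6.64 to 6.67 in Ly-6C-positive and 7.0 to 7.11 in Ly-6C-negative arrays, in the same direction as Ahnak and Anxa2. Foxp3, the marker that defines these cells, differed by 0.01 (limma adjusted p = 0.995). Of 13 NK and innate lymphoid markers measured, Klrd1 and Gzma were lower, at -1.5 and -0.69 (limma adjusted p = 0.0263 and 0.0392). Prf1 and Eomes did not pass and had differences of -0.70 and 0.27 (limma adjusted p = 0.145 and 0.473), in opposite directions. The mean level of the NK list was 5.91 to 5.92 in Ly-6C-positive and 5.66 to 5.74 in Ly-6C-negative arrays, while 5 of its 13 members lay above 0 and its median difference was -0.0533. The part of either list in the values of the 10 genes was not tested. In bulk samples fewer cells of a type and less RNA per cell cannot be told apart.

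The mean over the 10 genes varied more among Ly-6C-negative arrays, from 7.33 to 7.57, than among Ly-6C-positive arrays, from 7.38 to 7.44. Among 17873 genes with an SD at least that of the least variable member, the 8 that most resembled the mean centred profile of the 10 were Fh1, B3gat3, Sppl2c, Trmt11, Cdnf, Cstb, Rag2 and Gmds, with Pearson r of 0.987 to 0.997 over 6 arrays. With 6 points and so many candidates, values of this size are a description only. Their own differences between the groups lay between 0.06 and 0.13, with limma adjusted p from 0.914 to 0.956.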

How the data were processed

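Gene expression was measured on 6 Affymetrix mouse arrays. The authors deposited 1 log2 expression value per probe set and array; the tools named, per the submitters' processing notes, are RMA and Partek, without versions. No chip description or build is given in the sources used here. RMA equalises the arrays' distributions, so a change shared by all transcripts cannot be seen, and it compresses differences of dim genes. Values ran from 2.47 to 13.6, with array medians of 6.25 to 6.29. Precision is limited by having 6 arrays.

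Of 28853 probe sets, 21789 had 1 symbol in the platform annotation, 1621 had several and 5443 were not listed; for 21698 a current symbol was found through the Entrez ID. The highest-mean probe set per gene gave 19938 genes. Differences were tested with limma 3.58.1 (R 4.3.3; lmFit, eBayes, 2-sided, no covariate, no filter), with Benjamini-Hochberg adjustment over all genes and a threshold of 0.05, and the procedure was tested on simulated data. Python 3.11.15 with matplotlib 3.10.9 drew the figures.

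Named in the text are the 10 members, the gate genes, called genes and up to 4 with the smallest p of each list, and the most similar profiles; other list genes, among them Ahnak2, S100a8, Ezr, Rdx and Msn, were named after their values were seen. Members and lists were chosen with earlier results of these data known. Listed genes whose probe sets carry several symbols were not analysed here. Same-numbered arrays of the groups deviated together only weakly from their group means, with r of 0.129, 0.128 and 0.107 across genes. The labels do not say whether these arrays share mice, and r of this size does not establish pairs. The fit reported therefore has no block, and the replicate number was used as a block only as an alternative. Alternatives were a replicate block, another quantile normalization, median centring, no dim genes, mean probe sets, trend and robust eBayes, array weights and leaving out each array.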

Additional observations from a re-analysis of the deposited data

How the results depend on the processing

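None of the 10 genes passed the threshold in the fit reported or under any of the 13 alternatives, all planned; 6 of the 10 were tested when dim genes were left out, and Anxa1, Anxa2, S100a4 and S100a6 were not. With the replicate number as a block 41 genes passed over all genes against 29 without it, 0 of them members, and Ahnak came to a limma adjusted p of 0.167. Array weights gave 54 genes past the threshold, and leaving out 1 array gave 5 to 47: 8, 6 and 8 without Ly-6C-positive replicates 1, 2 and 3, and 5, 47 and 21 without Ly-6C-negative replicates 1, 2 and 3. Of 126 member differences under the alternatives, 123 kept their sign and side of the threshold and 3 changed sign. The 3 were S100a4 (0.031), S100a10 (0.057) and S100a11 (0.022), each without Ly-6C-negative replicate 3. Signs could not change under the replicate block, trend and robust eBayes or without dim genes, because these leave each difference as it was. Among the members, averaging probe sets could alter only S100a11. The count of 123 thus includes signs that were fixed in advance. Leaving out an array moved S100a4 between -0.17 and 0.031, S100a10 between -0.17 and 0.057 and S100a11 between -0.10 and 0.022. The median over the members ran from -0.0583 without dim genes to 0.0531 without Ly-6C-negative replicate 3. The causes were not tested. With 3 arrays a group, a p above the threshold does not show equal levels.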
